A study of Mus musculus with 8 samples.

Results

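Genes for axon guidance ligands and their receptors were followed in cultured mouse oligodendrocyte progenitors, cells that divide and later mature into the myelin-forming glia. The 52 members were picked by symbol: 18 semaphorins, 9 plexins, 2 neuropilins, netrin-1, Draxin, 5 netrin receptors, 3 Slits, 2 Robo receptors, 7 Eph receptors and 4 ephrins. All 52 were found among the 56980 gene IDs of the count table, and 51 had enough counts to be tested. The low glucose group (LG) and the high glucose group (HG) hold 4 RNA-seq libraries each. In LG cultures the medium held 12.5 mM glucose from day 1 and 5 mM from day 2, and the final 2.5 mM was reached on day 3, while HG cultures were kept at 25 mM. In both groups the cells came from the cortex of wild-type C57BL/6 pups of either sex at postnatal day 6 to 8, were bound to dishes coated with an antibody to PDGFRα, and were collected on day 5. The growth factors during expansion were bFGF at 20 ng/mL, which was then washed out, and PDGF-AA at 10 ng/mL, which stayed in the medium of all cultures throughout. The cells were grown on coated plastic without neurons, and the number of pups behind a preparation is not given in the sources used here.

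Guidance molecules steer growing axons and migrating cells by attraction or repulsion. Semaphorins signal through plexins, with neuropilins as the binding partners for most secreted class 3 members. Netrin-1 attracts through Dcc and repels through Unc5 receptors, Slits repel through Robo receptors, and ephrins are membrane-bound ligands of the Eph receptor kinases. In rodents, migrating oligodendrocyte progenitors respond to netrin-1 and to class 3 semaphorins, and netrin-1 and Dcc are also found in myelinating oligodendrocytes.

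Total counts ran from 53869166 to 65733928 in LG libraries and from 50864130 to 61915909 in HG libraries. Pdgfra, the progenitor marker used for the panning, had a mean counts-per-million (CPM) level of 1713 in LG and 1827 in HG. The descriptions give the libraries numbered 1 and 2 one preparation code, and those numbered 3 and those numbered 4 a code each. The treatment protocol nevertheless calls the preparations independent, so whether numbers 1 and 2 are separate preparations is not settled. Below, a preparation means libraries of one code, 3 in all, and p-values over libraries may partly measure technical spread. The defining microglial genes Cx3cr1, Itgam and Trem2 and the endothelial genes Cldn5 and Cdh5 were at 0 counts in every library. The summed level of the 10 microglial markers was 13.6 to 15.9 CPM in LG and 11.6 to 15.1 CPM in HG, and that of the 8 endothelial markers 6.04 to 7.41 CPM in LG and 5.08 to 6.70 CPM in HG. The 12 neuron markers summed to 1062 to 1153 CPM in LG and 1087 to 1234 CPM in HG, of which Map2 alone averaged 848 CPM in LG and 901 CPM in HG.

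The progenitor cultures held RNA of most of these guidance genes. A gene was called expressed when it had at least 1 RPKM (CPM of the library total divided by exon length in kb) in each of the 8 libraries. By that measure 35 of the 52 members were expressed, 17 of 27 ligands and 18 of 25 receptors. Another 16 were detected at lower levels. Slit3, at 0 to 9 counts per library, fell below the filter for testing. In bulk RNA, fewer cells of a type and less RNA per cell cannot be told apart. A low level may be a low level in all cells or a higher one in a few. Nor does bulk RNA tell which cell type in a culture held a transcript.

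**Figure D1:**
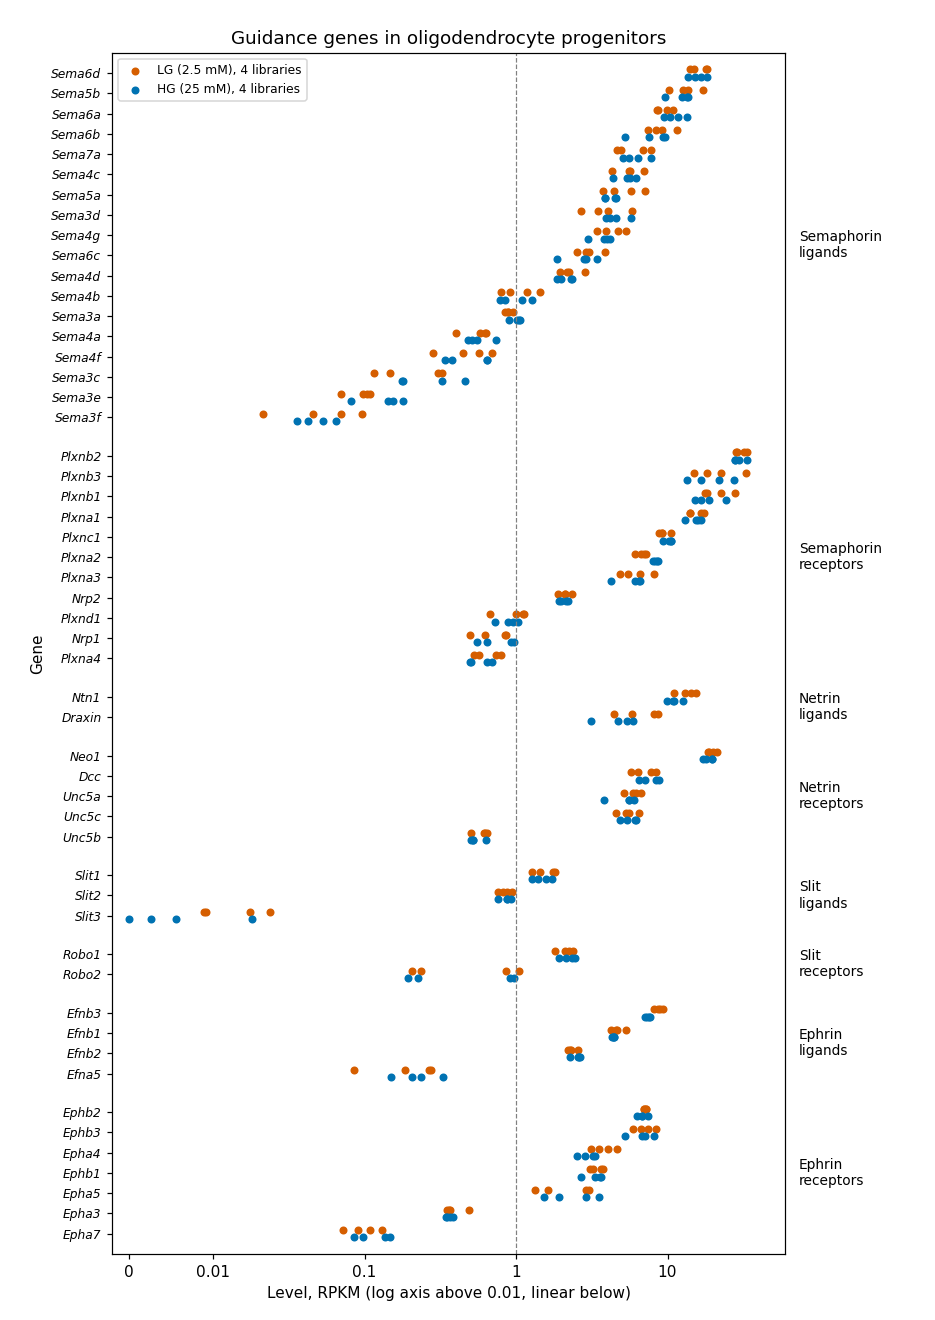
Level of each guidance gene (RPKM, horizontal axis, logarithmic but linear next to 0) in every library, with the 4 LG libraries drawn above the 4 HG libraries and a dashed line at 1 RPKM. Plexins of class B and Neo1 lie farthest right, Slit3 lies farthest left, and the LG and HG points of most genes intermingle.

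By mean RPKM, plexins of class B were the most abundant receptors among the members. Plxnb2, a receptor for class 4 semaphorins, was the highest of all members, at 30.7 ± 2.60 RPKM in LG and 29.6 ± 2.67 RPKM in HG (SD, n = 4 each). It made up 27.0% of the summed RPKM of the 9 plexins. Plxnb3, a receptor for Sema5a, had 14.9, 18.1, 22.4 and 33.0 RPKM in LG libraries 1 to 4, against 13.5, 16.8, 21.8 and 27.4 RPKM in HG libraries 1 to 4. Its level differed far more between library numbers than between glucose groups. Plxnb1, the high-affinity receptor for Sema4d, averaged 20.2 RPKM over the 8 libraries, and Plxna1, which acts with neuropilins and also binds Sema6d, 15.4 RPKM. The ranges of Plxnb3 and Plxnb1 over the libraries overlapped widely. Both also covered the range of the netrin receptor Neo1, 17.2 to 21.3 RPKM. The order of Plxnb3, Plxnb1 and Neo1 is not fixed by these data. Plxnc1, the receptor for Sema7a, averaged 9.81 RPKM, Plxna2 7.53 RPKM and Plxna3 6.06 RPKM. Plxnd1, the receptor for Sema3e, and Plxna4 were below the line at 0.937 and 0.619 RPKM.

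The neuropilins were among the less abundant receptors. Nrp2, the binding receptor of Sema3f, averaged 2.09 RPKM, and Nrp1, the binding receptor of Sema3a, 0.739 RPKM. Both together summed to 2.82 ± 0.0983 RPKM in LG and 2.83 ± 0.208 RPKM in HG (SD, n = 4 each). Of their class A plexin partners, Plxna1 to Plxna3 lay above Nrp2, and Plxna4 lay below Nrp1.

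Among the 18 semaphorins, the membrane-bound classes 5 and 6 dominated. Sema6d, which binds Plxna1, was the highest ligand among the members, with 15.0, 18.1, 14.1 and 18.1 RPKM in LG libraries 1 to 4 and 16.7, 18.1, 13.6 and 15.2 RPKM in HG libraries 1 to 4. The LG and HG ranges overlapped almost fully. Sema5b averaged 12.9 RPKM, Sema6a, a ligand of Plxna2 and Plxna4, 10.4 RPKM, Sema6b 8.54 RPKM, Sema5a 4.74 RPKM and Sema6c 2.91 RPKM. All 4 class 6 members and both class 5 members were expressed. Sema7a, which is tethered to the membrane by a lipid anchor, averaged 6.14 RPKM. The class 4 members Sema4c, Sema4g and Sema4d averaged 5.51, 4.03 and 2.21 RPKM. The remaining class 4 members Sema4b, Sema4a and Sema4f averaged 1.04, 0.563 and 0.499 RPKM, and Sema4b, the member just outside the line, crossed it in 4 of 8 libraries. The secreted class 3 was mostly low: Sema3d averaged 4.31 RPKM and made up 75.8% of the summed RPKM of its class, while Sema3a, the classical repellent of sensory axons, averaged 0.949 RPKM and Sema3c, Sema3e and Sema3f 0.254, 0.117 and 0.0534 RPKM.

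In the netrin system a ligand and its attractive and repulsive receptors were all present. Ntn1, which encodes netrin-1, had 14.2, 15.3, 11.1 and 13.1 RPKM in LG libraries 1 to 4, against 10.9, 12.7, 9.90 and 11.0 RPKM in HG libraries 1 to 4. LG was the higher of the pair in all 4 pairs, although the groups overlapped. Neo1, the neogenin receptor for netrins and repulsive guidance molecules, averaged 19.6 ± 1.24 RPKM in LG and 18.6 ± 1.17 RPKM in HG (SD, n = 4 each) and was the most abundant of the 5 netrin receptors among the members. Outside the members, Dscam, another netrin-1 receptor, averaged 32.0 RPKM. Dcc averaged 7.39 RPKM, Unc5a 5.61, Unc5c 5.55 and Unc5b 0.570 RPKM. Unc5a and Unc5c did not differ beyond their spread.

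Slits and Robos were near the lower end. Slit1 was the 1 expressed Slit, at 1.57 ± 0.260 RPKM in LG and 1.49 ± 0.195 RPKM in HG, and Robo1 the 1 expressed Robo, at 2.12 ± 0.231 RPKM in LG and 2.21 ± 0.241 RPKM in HG (SD, n = 4 each). Slit2 averaged 0.851 RPKM and Robo2 0.579 RPKM. The order of the Slits depended on the division by length. In CPM Slit2 was the higher, at 21.5 in LG and 21.7 in HG, beside 9.26 and 8.83 for Slit1. The exon union is 25433 bp for Slit2 and 5921 bp for Slit1.

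Among the Eph receptors and ephrins followed here, the B class was the more abundant. The highest of these 4 ephrins was Efnb3, at 9.35, 8.90, 8.59 and 8.16 RPKM in LG libraries 1 to 4 and 7.07, 7.58, 7.67 and 7.30 RPKM in HG libraries 1 to 4. Each LG library lay above each HG library. Efnb1 averaged 4.54 RPKM and Efnb2 2.42 RPKM, while the A-class ephrin Efna5 averaged 0.216 RPKM. Efna2, an A-class ephrin outside the members, averaged 8.91 RPKM, above Efnb3. All 3 EphB receptors were expressed, Ephb2 at 6.97, Ephb3 at 6.95 and Ephb1 at 3.36 RPKM. Of the 4 EphA receptors, Epha4, which binds ephrins of both classes, averaged 3.40 RPKM and Epha5 2.35 RPKM, and Epha3 and Epha7 stayed at 0.375 and 0.108 RPKM.

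Draxin was the 1 of 51 tested members that passed between glucose groups in the edgeR fit with the library number as a block. It encodes a secreted protein that binds Dcc and netrin-1 and repels commissural axons. Draxin had 45.9, 41.5, 31.2 and 22.3 CPM in LG libraries 1 to 4, against 28.2, 30.1, 24.8 and 16.3 CPM in HG libraries 1 to 4. LG was higher in 4 of 4 pairs, yet the groups overlapped, because libraries of number 4 were low and those of numbers 1 and 2 high in both. Draxin rose by 1.40-fold in LG (95% interval 1.25 to 1.57), a log2 fold change of 0.49 (SE 0.075), with an adjusted p of 0.0346 by edgeR's quasi-likelihood test with the library number as a block and Benjamini-Hochberg adjustment over 18905 genes. The same test called 1 of 51 tested members against 79 of all 18905 genes, or 0.418%, and 0.111% as higher in LG.

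The call was lost without the pairing and without pair 1 or pair 2, and kept without pair 3 or pair 4. Without the block the log2 fold change was 0.50 (SE 0.25) with an edgeR adjusted p of 0.9999, and 0 of 18905 genes passed, 0% of them, with 745 genes or 3.94% at an unadjusted p under 0.05, 5 of the 51 members among them. DESeq2 without the block called 4 genes and 0 members. Draxin had an edgeR adjusted p of 0.117 without pair 1, 0.192 without pair 2 and 0.9999 without both. Its log2 fold changes in these fits were 0.41, 0.49 and 0.39. Over all genes the same fits called 6, 0 and 0, so the loss of calls was not particular to Draxin. With the preparation code in place of the number as the block the edgeR adjusted p was 0.116, and with counts summed per preparation 0.0799.

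Draxin (ENSMUSG00000029005) lies on the minus strand of GRCm38 chromosome 4 at 148098437 to 148130698, and no other annotated gene shares its exons. Its promoter in RefSeq's GRCm38.p6 annotation is chr4:148130649-148130948 on the minus strand, from 250 bases before to 50 after the start. It is shown because Draxin was the 1 member that passed in the edgeR fit with the block. Capitals mark CTTTGT, the core letters bound by Sox factors, searched on both strands together with the E-box letters CANNTG and CACGTG, which is one form of CANNTG.
Draxin promoter: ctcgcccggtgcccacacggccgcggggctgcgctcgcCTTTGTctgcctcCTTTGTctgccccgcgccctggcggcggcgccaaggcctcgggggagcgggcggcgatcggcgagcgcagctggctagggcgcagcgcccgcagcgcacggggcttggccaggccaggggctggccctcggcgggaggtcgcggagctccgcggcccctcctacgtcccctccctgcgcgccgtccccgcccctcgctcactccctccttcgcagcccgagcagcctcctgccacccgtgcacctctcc
The window held 2 matches to CTTTGT, with 18.7% of 32851 RefSeq promoters of 300 bases holding at least 1. It held 1 match to CANNTG, which 72.3% of promoters have, and 0 to CACGTG, which 7.15% have. The CTTTGT and CANNTG matches did not overlap each other, and a match is a description of the letters only.

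**Figure D2:**
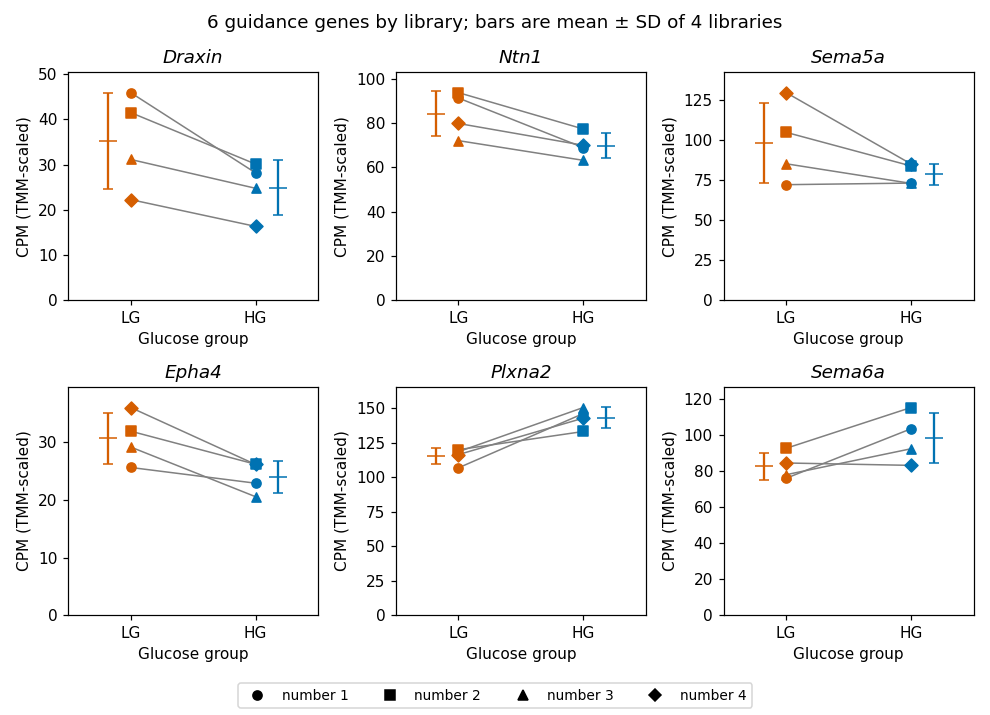
TMM-scaled CPM (vertical axis from 0) of 6 guidance genes in the LG and HG library of each number, joined by a line, with the mean and SD of 4 libraries beside each group. All 4 lines fall towards HG for Draxin, Ntn1 and Epha4, and all 4 climb towards HG for Plxna2.

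Epha4 and Sema5a passed as higher in LG once each library was corrected for smooth trends of GC and length, and not in the edgeR fit with the block alone. Epha4 is a receptor kinase and Sema5a a membrane-bound ligand. Epha4 had 25.6, 32.0, 29.2 and 36.1 CPM in LG libraries 1 to 4, against 22.9, 26.2, 20.6 and 26.2 CPM in HG libraries 1 to 4. Its log2 fold change was 0.35 (SE 0.076, edgeR adjusted p = 0.0747) with the block and 0.42 (SE 0.064, edgeR adjusted p = 0.0176) with the block and the offsets. LG was the higher in 4 of 4 pairs, with overlap between the groups in LG library 1 alone.

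Sema5a, whose product is a ligand of Plxnb3, had 72.1, 105, 85.1 and 129 CPM in LG libraries 1 to 4, against 73.1, 83.7, 72.9 and 85.0 CPM in HG libraries 1 to 4. LG library 4 was the highest and pair 1 showed no gain. The log2 fold change was 0.28 (SE 0.087, edgeR adjusted p = 0.199) with the block and 0.40 (SE 0.064, edgeR adjusted p = 0.0194) with the offsets as well, and 0.18 with the block but without pair 4. With the offsets and the block Draxin was at 0.45 (edgeR adjusted p = 0.0127), and these 3 members stood among 125 called genes, 0.661% of those tested.

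Several other members leaned one way without passing. Plxna2 had 107, 120, 119 and 117 CPM in LG libraries 1 to 4, against 146, 133, 151 and 143 CPM in HG libraries 1 to 4. No LG library reached the lowest HG library, and the log2 fold change was -0.31 (SE 0.062, edgeR adjusted p = 0.0608). Ntn1 averaged 84.2 ± 10.1 CPM in LG and 69.8 ± 5.81 CPM in HG (SD, n = 4 each), at 0.27 (SE 0.060, edgeR adjusted p = 0.0884). Sema6a, at 82.9 ± 7.52 CPM in LG and 98.8 ± 13.9 CPM in HG (SD, n = 4 each), had a log2 fold change of -0.25 with an edgeR adjusted p of 0.194, or -0.34 and 0.0465 without pair 4, the 1 pair in which it was not lower in LG. Without pair 4 Sema6a and Draxin were the 2 members among 148 called genes, 0.787% of those tested. Efnb3 and Plxna2 were the 2 of 51 tested members whose groups did not overlap, where 2.89% of all genes had no overlap. A further 8 members had an unadjusted p under 0.05 with log2 fold changes of 0.24 for Efnb3, 0.22 for Sema6b, 0.21 for Unc5a, 0.20 for Sema4g, 0.20 for Plxnb1, 0.14 for Plxnb3, -0.16 for Epha5 and -0.23 for Sema3d, at edgeR adjusted p values of 0.170 to 0.339. With the offsets as well all 8 lay closer to 0, at 0.16 for Efnb3, 0.14 for Sema6b, 0.12 for Unc5a, 0.13 for Sema4g, 0.17 for Plxnb1, 0.098 for Plxnb3, -0.0087 for Epha5 and -0.083 for Sema3d. DESeq2 with the block called 6 members, namely Draxin, Sema5a, Plxnb1, Ntn1 and Epha4 as higher and Plxna2 as lower in LG, among 474 genes or 2.51% of those tested.

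By median absolute log2 fold change, the members' differences were of the usual size for genes in these libraries. With the block, 32 of 51 members, or 62.7%, had positive log2 fold changes, beside 50.4% of all genes tested. The median was 0.056 in the members, beside 0.0015 over all genes tested. With the offsets as well the medians lay closer together, at 0.034 in the members and 0.023 over all genes tested. An unadjusted p under 0.05 was reached by 14 members, or 27.5%, beside 13.4% of all genes. The pairs went one way in all 4 cases for 16 of the 51 members, beside 21.7% of all genes. The median absolute log2 fold change was 0.11 in the members and 0.11 in all genes. The members were more abundant, at a median of 4.66 log2 CPM beside 3.71, and these comparisons were not matched for level. Ligands had a median of 0.055 and receptors 0.056. The 5 class 3 semaphorins had a median of -0.23, with 4 of 5 below 0, or -0.083 with the offsets as well, and none of them passed.

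With the block, the interval of the difference was narrow for most members. In 45 of 51 the 95% interval lay within a 1.5-fold difference either way, beside 68.7% of all genes, again not matched for level. Plxnb2 had an interval of -0.09 to 0.20 on the log2 scale, Neo1 -0.04 to 0.19, Sema6d -0.11 to 0.18, Ephb2 -0.07 to 0.19, Robo1 -0.20 to 0.08 and Slit1 -0.16 to 0.30. The 6 exceptions were Draxin and the low genes Sema3c, Sema3e, Sema3f, Efna5 and Epha7. For those 5 genes the intervals did not exclude a 1.5-fold difference. On the log2 scale they reached as far as -1.10 for Sema3e and 1.07 for Sema3f. Without the block the SE was 0.75 for Robo2, 0.34 for Epha5 and 0.28 for Plxnb3, beside 0.093, 0.070 and 0.055 with it. For Plxna2 the SE was 0.069 without the block and 0.062 with it.

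**Figure D3:**
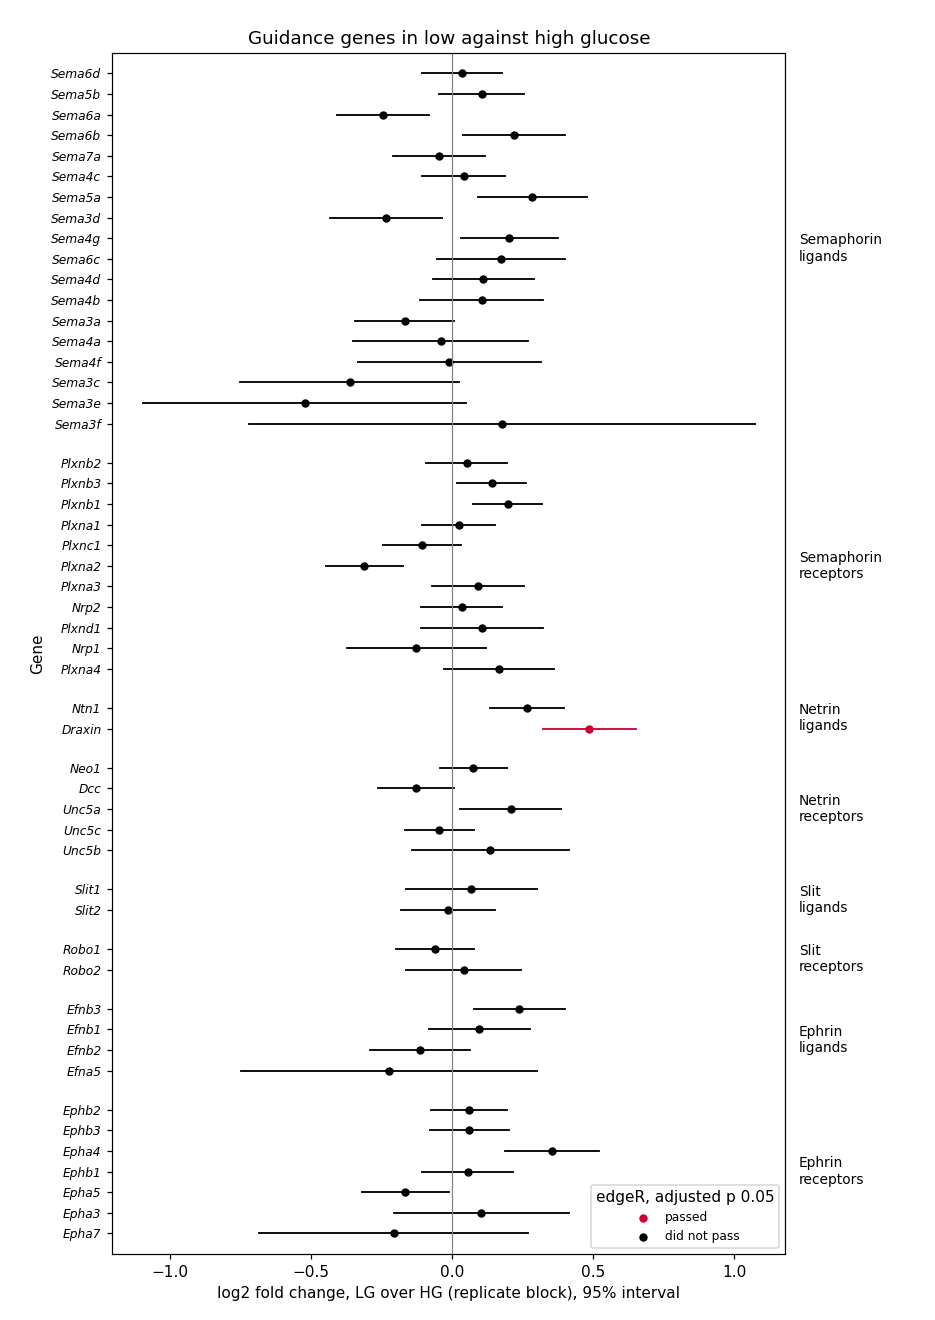
log2 fold change of LG over HG with its 95% interval (horizontal axis) for the 51 tested guidance genes in the edgeR fit with the replicate block, grouped by system and ordered by level. Draxin is drawn in red as the 1 gene that passed, and the intervals widen towards the low genes of each group.

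Members from each of the semaphorin, netrin, Robo and Eph groups differed between preparations. Between the 3 preparation codes, with the glucose group in the fit, 18 of 51 members or 35.3% passed by edgeR's quasi-likelihood F test, where 13.7% of all genes passed. The members were also more abundant than the average tested gene, with a median of 4.66 log2 CPM beside 3.71 in all tested genes. The count was 11 without number 4. The residual spread of that test comes from libraries, and 2 of the preparations have a single library per group.

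Robo2, a Slit receptor, varied most. Robo2 had 14.8, 17.3, 4.13 and 3.38 CPM in LG libraries 1 to 4 and 16.5, 15.1, 3.86 and 3.29 CPM in HG libraries 1 to 4. Numbers 1 and 2 were about alike in both groups, and numbers 3 and 4 were low in both. By mean log2 CPM, as for the folds that follow, the highest preparation exceeded the lowest by 4.73-fold (edgeR adjusted p = 7.0e-07), while the glucose log2 fold change was 0.04 (95% interval -0.16 to 0.25). Epha5 followed the same order, with 49.8, 49.2, 28.3 and 21.7 CPM in LG libraries 1 to 4 and 59.7, 47.5, 32.6 and 25.8 CPM in HG libraries 1 to 4 (2.17-fold over preparations, edgeR adjusted p = 6.7e-05).

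Plxnb3 ran the other way, with 99.1, 115, 151 and 208 CPM in LG libraries 1 to 4 and 87.9, 106, 144 and 180 CPM in HG libraries 1 to 4 (1.91-fold, edgeR adjusted p = 0.000176). It was highest in number 4 in both groups. Sema7a likewise had 15.7, 16.0, 23.4 and 25.0 CPM in LG libraries 1 to 4 and 16.7, 17.8, 21.5 and 26.0 CPM in HG libraries 1 to 4 (1.54-fold, edgeR adjusted p = 0.00243). Draxin itself averaged 36.4 CPM in numbers 1 and 2, 28.0 CPM in number 3 and 19.3 CPM in number 4 (1.87-fold, edgeR adjusted p = 0.000369). Of the 18 members that differed, 10 were highest and 8 were lowest in the preparation of numbers 1 and 2. Among the others, Nrp1 and Sema3c were higher in that preparation, and Dcc, Sema3d and Unc5c lower.

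**Figure D4:**
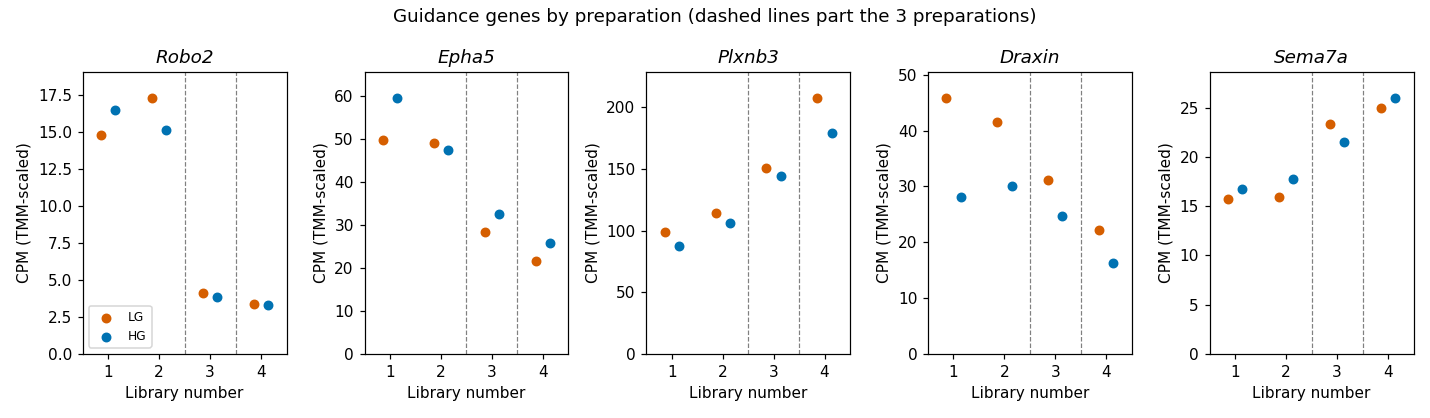
TMM-scaled CPM (vertical axis from 0) by library number for the 5 guidance genes with the smallest p between preparations, LG left of HG at each number. Robo2, Epha5 and Draxin are higher in numbers 1 and 2, and Plxnb3 and Sema7a are higher in numbers 3 and 4, in both glucose groups.

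Most astrocyte markers also differed strongly between these preparation codes. The 10 astrocyte markers summed to 1776 to 1968 CPM in libraries 1 and 2, 880 to 889 CPM in number 3 and 728 to 833 CPM in number 4, and 10 of 10 passed between preparations by edgeR. Aqp4 averaged 109 CPM in numbers 1 and 2, 5.57 CPM in number 3 and 3.43 CPM in number 4. S100b ran the other way, at 38.5 CPM in numbers 1 and 2, 51.7 CPM in number 3 and 65.5 CPM in number 4, and Sox9 was highest in number 3, at 305 CPM, beside 295 CPM in numbers 1 and 2 and 223 CPM in number 4. By glucose group the 10 markers summed to 728 to 1968 CPM in LG and 833 to 1811 CPM in HG, and 0 passed in the edgeR fit with the block. The premyelinating markers, early differentiation genes, summed to 1559 to 1866 CPM in numbers 1 and 2, 1797 to 2271 CPM in number 3 and 2147 to 2436 CPM in number 4. Of these 10 markers 7 passed between preparations by edgeR, not all in that direction. Enpp6 went the other way, at 25.5 CPM in numbers 1 and 2, 5.52 CPM in number 3 and 8.18 CPM in number 4. The 10 mural and fibroblast markers summed to 56.6 to 83.8 CPM in numbers 1 and 2 and 46.7 to 49.7 CPM in numbers 3 and 4, although the most abundant of them, Fbln1, went the other way, at 30.0 CPM in numbers 1 and 2, 38.4 CPM in number 3 and 39.9 CPM in number 4. The part of other cells or of differentiation in the preparation differences was not tested.

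Beside the glucose difference of Draxin, 10 of 10 premyelinating markers had positive log2 fold changes with the block, with a median of 0.31, and summed to 1713 to 2436 CPM in LG and 1559 to 2147 CPM in HG. Of them Neu4, a sialidase gene, and Myrf, a myelin transcription factor, passed as higher by edgeR with the block. The 16 cell cycle genes were all negative, with a median of -0.23, and Mki67, Cenpe and Knl1 passed as lower. The 10 progenitor markers had 7 positive values and a median of 0.058, and 0 passed by edgeR with the block. C1ql1 and Gpr17 came closest, at 0.42 and 0.38 (edgeR adjusted p = 0.0523 each). Both passed with the offsets as well, at 0.36 and 0.35 (edgeR adjusted p = 0.0194 and 0.0354). Whether these shifts had a part in the level of Draxin was not tested.

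Each of the wider pathway lists held 1 gene that passed by edgeR with the block, where 0.418% of all genes did. Of 28 further ligands and receptors of these families, 23 were tested, 0 passed as higher and 1 as lower in LG by edgeR with the block, at a median of 0.004. The one was Ntng1, which encodes netrin-G1, a lipid-anchored relative of netrins that does not bind Dcc. Ntng1 had 2.90, 2.42, 2.85 and 2.70 CPM in LG libraries 1 to 4, against 5.03, 4.77, 4.70 and 4.34 CPM in HG libraries 1 to 4. The groups stood well apart, at a log2 fold change of -0.79 (SE 0.12, edgeR adjusted p = 0.0346), or -0.74 (edgeR adjusted p = 0.0194) with the offsets as well. Without the block the edgeR adjusted p was 0.9999. At 0.450 RPKM it was below the line drawn for expression.

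Of 44 effectors and co-receptors, 43 were tested, 28 had positive log2 fold changes, the median was 0.035, 0 passed as higher and 1 as lower by edgeR with the block. That gene was Chl1, a cell adhesion molecule that acts as a co-receptor of neuropilin-1 for Sema3a in mouse axons. Chl1 had 56.3, 54.3, 73.8 and 69.3 CPM in LG libraries 1 to 4, against 76.8, 69.4, 88.6 and 86.5 CPM in HG libraries 1 to 4. LG was lower in every pair, and the log2 fold change was -0.35 (SE 0.058, edgeR adjusted p = 0.0392) with the block. Chl1 was not called with the offsets as well, at -0.19 and an edgeR adjusted p of 0.293, nor in the fit that left out the block, at 0.9999. Neither list had a member that passed without the block by edgeR.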

How the data were processed

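Per the labels' protocols, an mRNA kit turned 100 ng of total RNA per sample into libraries read as paired ends of 150 bp. The deposited table holds the authors' raw counts per Ensembl gene. The submitters' processing notes name STAR, featureCounts, CASAVA 1.8.2, DESeq2 and the build mm10, without roles. Neither the strand setting nor the treatment of multiply mapped reads was found in the labels, so reads of overlapping antisense genes cannot be told apart. Among members, Plxna1, Plxnb1, Sema4c, Plxna4, Unc5a, Unc5c and Ephb1 share exon bases with a gene on the other strand. The labels state fewer reads per sample than the table's totals hold, so a count may not be 1 fragment and counting precision may be overstated.

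Symbols, exon lengths and GC content came from GENCODE M21 (GRCm38), which named 52125 of 56980 IDs. RPKM used the total counts and the union of exons. Testing used edgeR 4.0.16 in R 4.3.3: filterByExpr kept 18905 genes, with TMM scaling, robust quasi-likelihood fits, Benjamini-Hochberg adjustment and a threshold of 0.05. An SE is the absolute log2 fold change over the square root of F. CPM values carry the TMM factors.

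The main fit had the library number as a block, since the members were defined for a paired comparison and the descriptions give same-numbered LG and HG libraries one preparation code. Numbers 1 and 2 share a code, so within them the code does not tell which LG library pairs with which HG library. LG and HG libraries of one number deviated together from their group means, with Pearson's r of 0.445 to 0.623 over genes (no independent replicates), against at most 0.416 for libraries of different numbers. Replicates of a group differed by a chi-square per degree of freedom of at least 19.1. Alternatives were no block, GC and length offsets (mgcv 1.9.3, 97.5% of tested genes covered), blocks or sums by preparation, DESeq2 1.42.0, limma-voom 3.58.1, other scaling and filters, and left-out pairs. The fits were tested on simulated counts. Members called in a main or named alternative fit, the most abundant ligand and receptor of each system, the 5 members with the smallest p between preparations and called genes of both pathway lists were named with full values. The members with an unadjusted p under 0.05 were added to the genes followed through the alternatives after their values were seen. The members, lists and tests were chosen with earlier results of these data known. Promoters came from RefSeq (GRCm38.p6), where 44 of the 52 members matched by symbol.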

Additional observations from a re-analysis of the deposited data

Results flagged for a closer look

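In 102 groups of 4 libraries, 51 tested guidance genes in LG and in HG, 5 groups had 1 library far from the other 3, where chance gives about 1 in 20, or 5.1. Sema4a was lowest in LG replicate 3, at 1.183 log2 CPM, with the other LG libraries at 1.68 to 1.747. Unc5b was lowest in LG replicate 3, at 1.732 log2 CPM, with the others at 1.948 to 1.986, and highest in HG replicate 4, at 2.002 log2 CPM, with the others at 1.685 to 1.72. HG replicate 1 had the lowest Plxna1, at 6.891 log2 CPM, with the others at 7.147 to 7.191, and also the lowest Plxna3, at 5.072 log2 CPM, with the others at 5.613 to 5.714.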

How the results depend on the processing

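The count of guidance genes called in LG against HG was 1 with the replicate block. It was 0 with no replicate block, with the preparation code as the block, with counts summed per preparation, with DESeq2 and no block and without the preparation of numbers 1 and 2 (an alternative added after seeing the data). It was 3 with the GC and length offsets and the block, 6 with DESeq2 and the block, 6 with no filter on low counts, and 0 to 2 with 1 pair left out. Over all genes the count was 79 with the block, 0 with no block, 125 with the offsets and the block, 1 with the preparation block, 17 with sums per preparation, 474 with DESeq2 and the block, where 6964 genes had no adjusted p, 4 with DESeq2 and no block, 739 with no filter, 0 without the preparation of numbers 1 and 2, and 0 to 148 with 1 pair left out. Draxin kept its direction in 16 of 16 alternatives, at 0.39 to 0.54, and passed in 9 of them (adjusted p from 7.5e-07 to 0.99997). The count between preparations ran from 11 to 17 with 1 pair left out. Expressed members numbered 35, or 40 at 0.5 RPKM and 29 at 2 RPKM. With the length of the longest transcript in place of the exon union they numbered 39. Signs near 0 turned for Plxnb2 and Slit1 with the offsets and the block (-0.0039 and -0.0092), and for Plxnb2 and Sema7a without the preparation of numbers 1 and 2 (-0.021 and 0.030). Leaving out 1 pair gave log2 fold changes of -0.018 to 0.091 for Sema6d, -0.010 to 0.10 for Plxnb2, -0.0063 to 0.19 for Slit1 and -0.015 to 0.12 for Robo2. Of 352 comparisons over 22 members, 324 kept direction and side of the threshold. Draxin was the only one of the 22 that passed in the main fit. For the others, a fit that called no gene also kept the side of the threshold, so this total does not measure robustness. The causes of the changes between fits were not tested. At this depth and with the block, a 1.5-fold difference was within the intervals of the 5 lowest tested members.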
